A study of Mus musculus with 4 samples.

Results

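The zinc finger genes numbered Zfp600 and above are a block of mouse gene symbols that holds many transcription factors of the KRAB class. They were taken as every row of the deposited table whose symbol is Zfp with a number of 600 or more and at most 1 trailing letter, and whose level was at least 1 TPM (transcripts scaled to a fixed total of 1000000 in each library) in at least 2 of the 4 libraries. They were thus chosen by their measured levels in the same 4 libraries that are compared here. This gave 145 genes out of 186 such rows, in a table of 52197 rows. The libraries come from RNA immunoprecipitation and sequencing (RIP-seq), made to identify RNAs associated with SAFB, a nucleic acid-binding protein of the nuclear matrix. The SAFB RIP group (2 libraries) was precipitated with an antibody to SAFB and the IgG RIP group (2 libraries) with control IgG. All 4 libraries share the rest: AML12 cells, a mouse hepatocyte line first derived from mice transgenic for human TGF-alpha, were grown with 10% fetal bovine serum, ITS supplement and 0.1 µM dexamethasone, UV-crosslinked, and reduced to sonicated nuclear lysate that was shared out between the antibodies. The input was not analysed here, and neither group carries a knockdown or another treatment. The labels do not say whether replicates came from separate cultures, so p-values measure only the spread between these libraries.

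Zinc fingers of the C2H2 type are short units in which a pair of cysteines and a pair of histidines hold a zinc ion, and arrays of them read DNA sequence. In KRAB zinc finger proteins, an N-terminal KRAB domain recruits TRIM28 (KAP1), which brings the histone H3 lysine 9 methyltransferase SETDB1, HP1 proteins and the NuRD complex, and many of these proteins silence retroelements. The genes arose by repeated duplication, lie in clusters that expanded separately in rodents and primates, and usually encode the whole finger array in 1 last exon.

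The finger array leaves a repeated word in the RNA. The word shown here was picked as the most frequent spelling of the finger linker in these same genes. Its share in them, beside other genes, is therefore a description. Neighbouring fingers are joined by a conserved linker, and the word GGAGAGAAACC is the most frequent spelling of its residues Gly-Glu-Lys-Pro (the last codon cut to its first bases), used in 406 of 794 such linkers in the members. Searched on the transcript strand only, the word occurred in 76 of the 145 genes (52.4%), against 76 of the 187 numbered Zfp genes below 600 that passed the same level (40.6%) and 272 of the 16611 genes tested that have an annotated transcript (1.64%). Copies came at a regular spacing: of 358 neighbouring pairs, 233 (65.1%) were 84 bases apart, the length of 1 finger with its linker, and 334 (93.3%) were a multiple of 84 bases apart. Of the 434 copies in coding members, 409 lay in the coding part. The windows below are on the mm10 build with the GENCODE M21 annotation, on the gene's own strand, with the linker word in capitals. They show the first coding copy in those of the 10 genes with the largest rises that hold the word in their coding part.
Zfp607a, chr7:27878086-27878115, plus strand: gttcatgctGGAGAGAAACCctatgaatgt
Zfp970, chr2:177475004-177475033, plus strand: acacatacaGGAGAGAAACCctatgaatgt
Zfp994, chr17:22201160-22201189, minus strand: attcatacaGGAGAGAAACCttacaaatgt
Zfp758, chr17:22375222-22375251, plus strand: atgcatactGGAGAGAAACCttacaaatgt
Zfp940, chr7:29845371-29845400, minus strand: gtccacactGGAGAGAAACCttttaaatgt
Zfp944, chr17:22339626-22339655, minus strand: attcatacaGGAGAGAAACCttacagatgt
Zfp965, chr2:175479807-175479836, plus strand: aaacatacaGGAGAGAAACCatatgaatgt
Zfp983, chr17:21661857-21661886, plus strand: gttcataccGGAGAGAAACCttacaaatgc

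Zfp970 held 13 copies, the most among these 8 genes, and 1 whole repeat unit from it shows the spacing, with a linker word at each end and the finger between them in lower case.
Zfp970 repeat unit, chr2:177475181-177475275, plus strand: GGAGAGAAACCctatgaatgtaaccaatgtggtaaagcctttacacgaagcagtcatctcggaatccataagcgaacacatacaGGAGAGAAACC
Zfp607a held 1 copy, Zfp983 and Zfp940 held 2 each, and the remaining windows come from genes with 6 to 10 copies. Zfp790 and Zfp867, which are also among the 10 largest rises, held none.

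The rule used the levels in all 4 libraries, including those compared here, so a gene could enter through the SAFB libraries alone and then had to differ. That held for 12 of the 145 genes, which were below 1 TPM in both IgG libraries, as were 7.79% of all genes tested. The counts and medians over the 145 genes are therefore descriptions. Of the 41 rows outside the rule, 20 were listed at 0 in every library and the highest value among the others was 1.40 TPM. Just inside the rule, Zfp712 had 1.06 and 0.793 TPM in the SAFB RIP, against 1.84 and 0 TPM in the IgG RIP. Zfp977 had 1.23 and 1.14 TPM against 0 and 0.260 TPM, and Zfp853 had 1.25 and 2.32 TPM against 0 and 0.367 TPM, in the same order. Just outside it, Zfp811 had 1.40 and 0.890 TPM in the SAFB RIP, against 0 and 0.443 TPM in the IgG RIP. Zfp967 had 0.575 and 0 TPM against 0 and 0.951 TPM, and Zfp992 had 0.923 and 0.517 TPM against 0.494 and 0.0322 TPM.

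The libraries themselves differed in ways that touch every value. The 10 most abundant entries took 9.59% and 9.73% of the SAFB libraries, against 27.5% and 26.8% of the IgG libraries, and a TPM value is a share of its library. Over all genes tested the median log2 fold change of SAFB RIP over IgG RIP was 0.46 on the log2(TPM + 1) scale, so each fold change is also given, where it matters, after each library was centred on its median. Safb RNA itself stood at 988 and 880.1 TPM in the SAFB RIP, against 169.8 and 161 TPM in the IgG RIP; it is the message of the precipitated protein, and the protein was not measured. Of 13 hepatocyte markers, 10 reached 1 TPM in at least 2 libraries, with summed levels of 6249 and 6476 TPM in the SAFB RIP against 7291 and 7406 TPM in the IgG RIP, and Apoa2 and Cyp2e1 were listed at 0 in every library. Of the 4 endothelial and 7 stellate or fibroblast markers, 0 reached that level, and their sums were between 0 and 1.83 TPM in every library. Of 5 macrophage markers 2 did, with sums of 34.3 and 22.7 TPM in the SAFB RIP against 13.5 and 8.62 TPM in the IgG RIP, while the defining genes Adgre1 and Clec4f were at 0; the part of these markers in the results was not tested. Of 4 cholangiocyte markers 3 did, with sums of 870 and 900.5 TPM against 1265 and 910 TPM.

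Zinc finger transcripts of this block took a larger share of the SAFB libraries than of the IgG libraries. Summed over all 186 rows, with no filter on level, they made up 0.593% and 0.580% of the SAFB libraries (mean 0.587% ± 0.00920, SD, n = 2), against 0.236% and 0.253% of the IgG libraries (mean 0.244% ± 0.0121, SD, n = 2), a ratio of 2.40. The groups did not overlap, and with 2 libraries against 2 no exact permutation test can pass a threshold of 0.05. The ratio was 2.47 for the 215 rows of numbered Zfp genes below 600 and 1.23 for all 21814 protein-coding genes. The libraries are bulk, so how many cells carried an RNA and how much of it each cell held cannot be told apart in any level given here.

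Gene by gene, 83 of the 145 members (57.2%) were higher in the SAFB RIP, 1 was lower and 61 did not pass the test (limma on log2(TPM + 1), two-sided, Benjamini-Hochberg adjusted over all 16647 genes tested, threshold 0.05). Over all genes tested, 29.8% were higher and 8.3% lower. The members' median log2 fold change was 1.41 (quartiles 0.69 and 1.94, range -0.998 to 3.53). After median centring, 59 members were higher and 6 lower, with a median of 0.95, beside 16.4% higher and 17.6% lower over all genes tested. SAFB values lay above both IgG values in 122 members and below both in 7, and the groups overlapped in 16; over all genes tested the shares were 52.3% above and 21.4% below. Among the 128 members whose IgG mean was at least 1 TPM, 70 were higher and 1 lower, with a median of 1.40. Over the 14799 genes with such an IgG mean, 25.1% were higher and 9.34% lower, with a median of 0.32. The counts rest on the SAFB pair, whose libraries differed by a median of 0.160 log2 units among members, against 0.467 in the IgG pair. Most calls were lost with either SAFB library left out, in members and over all genes tested, and the spread then came from the IgG pair alone. The members' median log2 fold change was 1.44 with SAFB replicate 1 left out and 1.46 with SAFB replicate 2 left out.

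**Figure D1:**
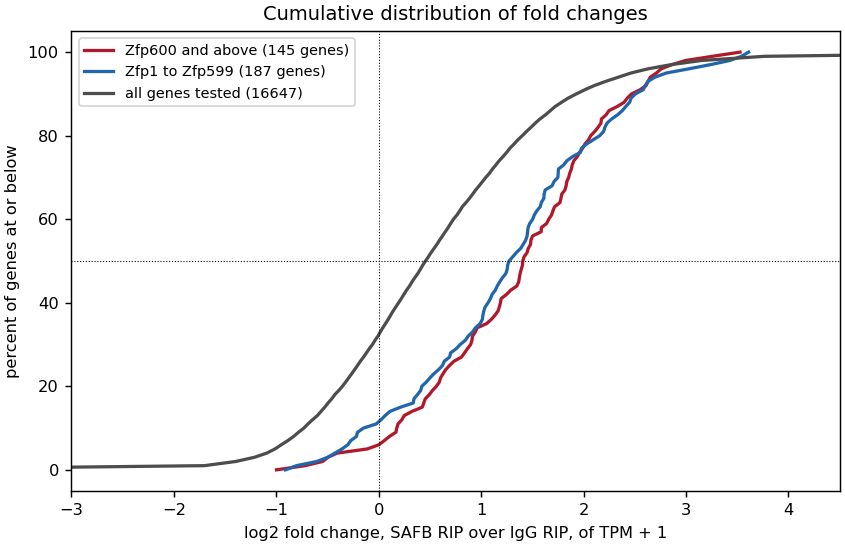
Cumulative percent of genes (vertical axis) at or below each log2 fold change of SAFB RIP over IgG RIP (horizontal axis, TPM + 1), for the 145 zinc finger genes numbered 600 and above, the 187 below 600 and all 16647 genes tested. The curves cross 50% at 1.41, 1.27 and 0.46.

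The numbered Zfp genes below 600 lay close to this block: 107 of 187 were higher and 0 lower, with a median log2 fold change of 1.27, against 83 higher and 1 lower of 145 and a median of 1.41. At an unadjusted limma p below 0.05, 2 genes were lower in each block, and no other tool was run. The split at 600 is one of naming order, and the difference between the blocks was not tested.

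All 10 of the largest rises were in genes with the end of a KRAB A box, called from a pattern in the first 200 residues of the protein. Of the 143 coding members, 96 have this end. Zfp607a had 149 and 130.5 TPM in the SAFB RIP, against 7.38 and 16.7 TPM in the IgG RIP. Its log2 fold change was 3.53 ± 0.39 (SE; limma adjusted p = 0.00753), the largest of the 145. Zfp790, a neighbour of Zfp940 on chromosome 7, had 198 and 168 TPM in the SAFB RIP, against 15.2 and 20.3 TPM in the IgG RIP (log2 fold change 3.30 ± 0.19, limma adjusted p = 0.00395). In both genes the lower SAFB library stood several-fold above the higher IgG library. Zfp970 had 263 and 246 TPM in the SAFB RIP, against 20.03 and 35.6 TPM in the IgG RIP (3.20 ± 0.29, limma adjusted p = 0.00577), the highest SAFB level of the 10. Of its transcript's 50-base words, 52.2% also occur in other genes, most of them in Gm14288, so part of its level is uncertain. Zfp867 had 57.0 and 51.2 TPM in the SAFB RIP, against 4.61 and 7.81 TPM in the IgG RIP (2.97 ± 0.30, limma adjusted p = 0.00652). These 4 passed the test under each alternative scaling, filter and pseudocount tried, and under the replicate block, but not with either SAFB library left out.

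The other 6 of the 10 largest rises had low IgG levels. Zfp758 had 6.17 and 5.60 TPM in the SAFB RIP and was listed at 0 in both IgG libraries, so no fold is given. It is 1 of the 12 genes that met the level rule through the SAFB libraries alone and had to differ, so its limma adjusted p of 0.00651 is a description. Zfp994 had 17.2 and 14.1 TPM in the SAFB RIP, against 0.636 and 2.01 TPM in the IgG RIP (log2 fold change 2.90 ± 0.44, limma adjusted p = 0.0125). Of its words, 18.2% occur in other genes. Zfp983 had 11.5 and 9.41 TPM in the SAFB RIP, against 1.63 and 0.277 TPM in the IgG RIP (2.64 ± 0.47, limma adjusted p = 0.0178), and its exons overlap 233 bases of CAAA01141682.1 on the same strand. In these 3 genes the groups stood well apart. Zfp940 had 25.4 and 28.5 TPM in the SAFB RIP, against 1.25 and 6.67 TPM in the IgG RIP (2.75 ± 0.65, limma adjusted p = 0.0338). Zfp944 had 14.5 and 19.6 TPM in the SAFB RIP, against 3.61 and 0.594 TPM in the IgG RIP (2.72 ± 0.61, limma adjusted p = 0.0295). Zfp965 had 11.7 and 9.19 TPM in the SAFB RIP, against 0 and 2.15 TPM in the IgG RIP (2.68 ± 0.64, limma adjusted p = 0.0343), and all of its words occur in Zfp973, so its reads cannot be assigned to it alone. In these last 3 the IgG libraries differed severalfold from each other, as they also did in Zfp994 and Zfp983. The calls of the last 3 were lost with no filter on low values and with a pseudocount of 0.1. The call of Zfp944 was also lost under quantile normalization and with the GC trend removed, that of Zfp940 without the variance trend, and that of Zfp965 with a pseudocount of 0.5. All 3 calls, and those of Zfp994 and Zfp983, were lost with either SAFB library left out.

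**Figure D2:**
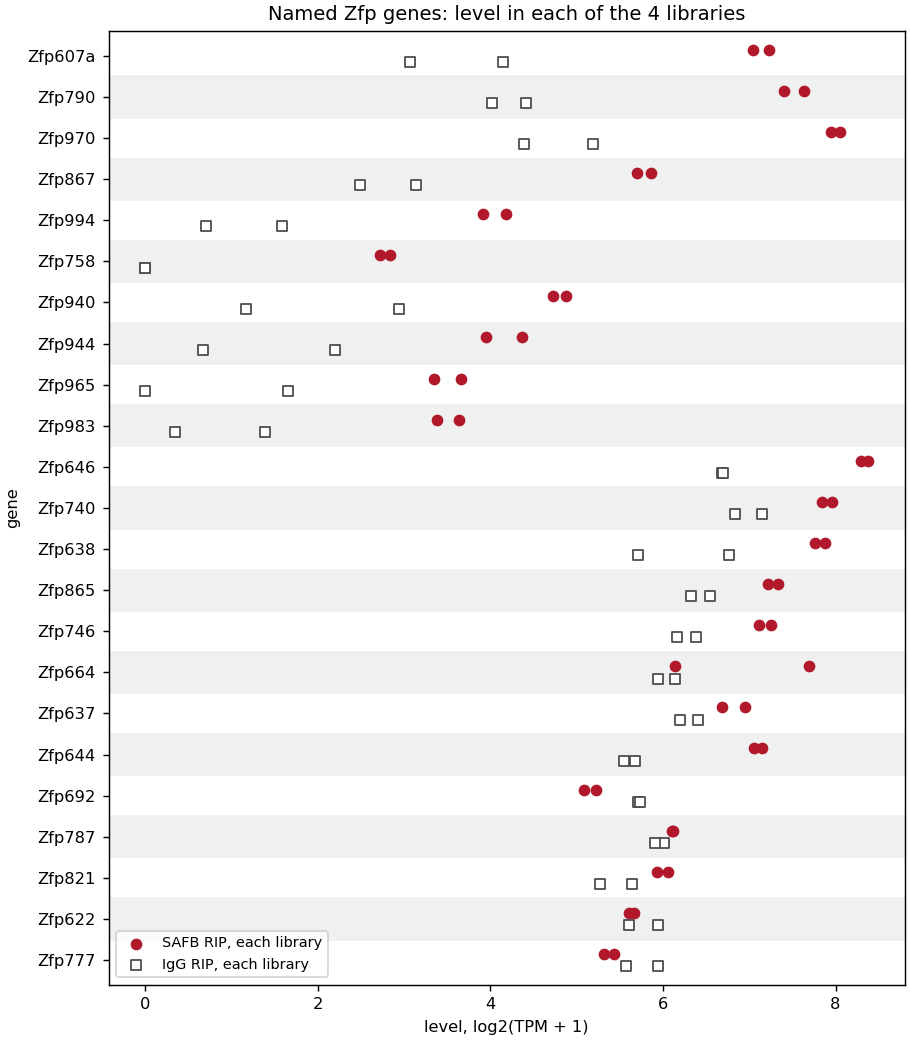
Level in each of the 4 libraries (TPM, on a log2(TPM + 1) axis) for the zinc finger genes named by rule, SAFB RIP and IgG RIP libraries as separate points. Zfp607a, Zfp790 and Zfp970 show wide gaps between the groups, the abundant genes show narrower ones, and Zfp692 is the gene with both SAFB points below both IgG points that passed the test.

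In 8 of the 10 most abundant members no KRAB A box end was found by the pattern, and the other 2 are Zfp970 and Zfp790, given above. Zfp646, a protein with many C2H2 fingers, had 312 and 332 TPM in the SAFB RIP, against 102 and 103 TPM in the IgG RIP (log2 fold change 1.64 ± 0.09, limma adjusted p = 0.00387). Its exons overlap 608 bases of its neighbour Zfp668 on the opposite strand. Zfp638, known as NP220, a nuclear protein that binds RNA and DNA, had 235 and 217 TPM in the SAFB RIP, against 51.4 and 108 TPM in the IgG RIP (1.59 ± 0.37, limma adjusted p = 0.0314). Zfp644, a partner of the G9a and GLP histone methyltransferases, had 132 and 141 TPM in the SAFB RIP, against 50.2 and 46.0 TPM in the IgG RIP (1.49 ± 0.12, limma adjusted p = 0.00495). All 3 genes had both SAFB values above both IgG values, as did 52.3% of all genes tested. After median centring Zfp646 and Zfp644 passed the test, at 1.18 and 1.03, and Zfp638 did not, at 1.13 with a limma adjusted p of 0.0555. Zfp638 was also lost with no filter (0.0583) and without the variance trend (0.0584). Zfp644 overlaps Gm28039 over 143 bases on the same strand.

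The rises were smaller in 3 further abundant genes on the reported scale, an order that did not hold with the GC trend removed. Zfp746, which encodes the parkin substrate PARIS, a transcriptional repressor, had 137 and 152 TPM in the SAFB RIP, against 70.5 and 82.3 TPM in the IgG RIP (log2 fold change 0.91 ± 0.13, limma adjusted p = 0.0117). Zfp740 had 229 and 248 TPM against 140.4 and 113 TPM (0.91 ± 0.14, limma adjusted p = 0.0133), and Zfp865 had 159.7 and 148 TPM against 79.1 and 92.7 TPM (0.84 ± 0.13, limma adjusted p = 0.0129), each with the SAFB RIP first. After median centring Zfp746 passed and the calls of Zfp740 and Zfp865 were lost (0.45 and 0.38). With the GC trend removed all 3 passed, at 1.46 for Zfp746, 0.96 for Zfp740 and 1.45 for Zfp865, against 1.15 for Zfp638 and 1.03 for Zfp644. Zfp740 overlaps Csad over 278 bases and Zfp865 overlaps Zfp784 over 2041 bases, in both cases on the opposite strand. On its own strand Zfp865 overlaps 4632433K11Rik over 1129 bases, Gm44973 over 335 and Ccdc106 over 103, and 19.1% of its words are shared, so its level is uncertain. Zfp664 had 69.6 and 206 TPM in the SAFB RIP, against 60.7 and 69.4 TPM in the IgG RIP, and did not pass the test (0.87 ± 0.53, limma adjusted p = 0.253); its SAFB libraries differed more from each other than its groups did. Zfp637 had 123 and 102 TPM in the SAFB RIP, against 84.01 and 72.2 TPM in the IgG RIP, and did not pass either (0.51 ± 0.15, limma adjusted p = 0.0578). It did pass with the replicate block (0.0465), without IgG replicate 1 (0.0193) and with the GC trend removed (0.0242).

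Zfp692 was the 1 member called lower. It encodes a C2H2 protein first described as an AICAR response element-binding factor, and it had 32.9 and 36.3 TPM in the SAFB RIP, against 51.5 and 52.1 TPM in the IgG RIP (log2 fold change -0.57 ± 0.14, limma adjusted p = 0.0372; -1.03 after median centring). With the trend of fold change with transcript GC content removed, its value was 0.11. The call was also lost with the replicate number as a block (limma adjusted p = 0.0797), without the variance trend (0.0696), and with SAFB replicate 1 (0.224) or SAFB replicate 2 (0.179) left out. Its neighbour on chromosome 11, Zfp672, was higher, with 112 and 116 TPM in the SAFB RIP against 24.9 and 28.7 TPM in the IgG RIP (2.05 ± 0.14, limma adjusted p = 0.00449). The direction of Zfp672 was the same with the GC trend removed, at 2.20.

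After median centring 5 further members passed as lower, and they are named here after their values were seen. Zfp874a had 6.48 and 4.196 TPM in the SAFB RIP, against 12.4 and 10.5 TPM in the IgG RIP, a log2 fold change of -0.998 ± 0.35 (limma adjusted p = 0.0855) and -1.46 after centring. The other 4 were Zfp703 at -1.30, a corepressor of the NET family, Zfp771 at -1.004, Zfp706 at -0.96 and Zfp777 at -0.84, all after centring. Of these, Zfp703 had 3.55 and 3.92 TPM in the SAFB RIP, against 8.71 and 6.34 TPM in the IgG RIP. In all 5 both SAFB values lay below both IgG values, as in 21.4% of all genes tested, while none of the 5 passed before centring. With the GC trend removed Zfp874a (-1.36) and Zfp706 (-0.95) were called lower, and Zfp703 (-0.0646), Zfp771 (0.40) and Zfp777 (0.35) did not pass.

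Among abundant members that did not pass, Zfp787 had 68.5 and 67.9 TPM in the SAFB RIP, against 63.8 and 59.2 TPM in the IgG RIP (log2 fold change 0.15 ± 0.12, limma adjusted p = 0.371). Zfp821 had 65.9 and 60.2 TPM in the SAFB RIP, against 49.0 and 37.6 TPM in the IgG RIP (0.54 ± 0.18, limma adjusted p = 0.0743). With the GC trend removed both were called higher, at 0.97 (limma adjusted p = 0.00786) for Zfp787 and 1.17 (0.00904) for Zfp821, and Zfp821 also passed without IgG replicate 1 (0.00862). Exons of Zfp787 overlap 164 bases of Gm45841 on the same strand. Zfp622, which in yeast has a relative (Rei1) that acts in maturation of the large ribosomal subunit, had 47.7 and 49.9 TPM in the SAFB RIP, against 60.4 and 47.9 TPM in the IgG RIP (-0.14 ± 0.17, limma adjusted p = 0.546). Its groups overlapped. Zfp777 had 38.9 and 42.3 TPM in the SAFB RIP, against 60.5 and 46.6 TPM in the IgG RIP (-0.38 ± 0.18, limma adjusted p = 0.165). Zfp809, the KRAB protein that binds the primer binding site of murine leukaemia virus and silences it through TRIM28, is named here for that role after its values were seen; it had 51.0 and 55.1 TPM in the SAFB RIP, against 31.0 and 39.3 TPM in the IgG RIP (0.59 ± 0.18, limma adjusted p = 0.0589).

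KRAB-type members had the larger median fold change. A KRAB domain was called where the first 200 residues of the translated protein hold the pattern that ends the KRAB A box, a pattern chosen after values were seen, because the core first set found only 34 of 143 coding members. Of 96 members with this end, 56 were higher and 0 lower, with a median log2 fold change of 1.66, against 26 higher and 1 lower of 47 coding members without it and a median of 0.87; at an unadjusted limma p below 0.05, 1 gene was lower in each kind. After median centring the 96 held 40 higher and 1 lower, against 18 higher and 5 lower of the 47. The level rule bore on the 2 kinds unevenly. Through the SAFB libraries alone 10 of the 96 met it, against 1 of the 47, and the direction of these genes was fixed by it. The counts and medians of this split are therefore descriptions. By the core first set, 23 of 34 members were higher and 0 lower, with a median log2 fold change of 1.74. Without that core 59 of 109 were higher and 1 lower, with a median of 1.34. With the GC trend removed these 2 medians were 1.32 and 1.14. The 96 stood at a median SAFB mean of 15.4 TPM and a median IgG mean of 4.47 TPM, against 48.8 and 27.5 TPM for the 47, so the KRAB-type genes were the rarer ones in both precipitates. By sum over all rows of each kind, with no filter on level, those with the end made up 0.267% and 0.244% of the SAFB libraries against 0.0642% and 0.0876% of the IgG libraries, a ratio of 3.37. Rows without it made up 0.324% and 0.334% against 0.171% and 0.165%, a ratio of 1.96. The same split appeared below 600, with medians of 1.58 in 86 genes with the end and 0.86 in 99 without, and 48 other coding genes with the end and a finger had a median of 1.61. Of these genes 13 of the 86, 1 of the 99 and 7 of the 48 met the level rule through the SAFB libraries alone. The difference between the kinds was not tested.

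The KRAB-type members also differed in base composition. Their median transcript GC content was 40.7%, against 52.8% in members without the A box end, and they held a median of 12 fingers, against 7. The linker word occurred in 74 of 96 members with the end and in 2 of 47 without it. Below 600 it occurred in 58 of 86 genes with the end and in 18 of 99 without. It also occurred in 42 of 48 other coding genes with the end and a finger, so the word is not particular to this block. With the trend of fold change with GC removed across all genes, the medians came to 1.33 with the end and 1.04 without, a smaller gap. The share called higher was then larger without the end. With it 45 of 96 were higher and 1 lower, against 33 of 47 higher and 1 lower without it. In all, 79 members were called higher and 2 lower, beside 4335 higher and 822 lower of 16611 genes. Across members, the fold change ran with GC content at Spearman's rho = -0.34 (n = 145), and at -0.09 once the trend was removed. The trend is not particular to the members: rho was -0.37 across the Zfp genes below 600 and -0.51 across 11961 protein-coding genes. With finger number rho was 0.29 (n = 143 coding members), and 0.20 once the GC trend was removed. These are correlations across genes that share libraries, descent and base composition, and genes are not independent replicates. By finger number, the median log2 fold change was 0.06 in 3 coding members with none, 0.80 in 12 genes with 1 to 4 fingers, 1.02 in 38 with 5 to 9, 1.45 in 55 with 10 to 14 and 1.66 in 35 with 15 or more. With the GC trend removed these medians were -0.0646, 1.16, 0.94, 1.28 and 1.45, in the same order, and did not climb at each step.

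**Figure D3:**
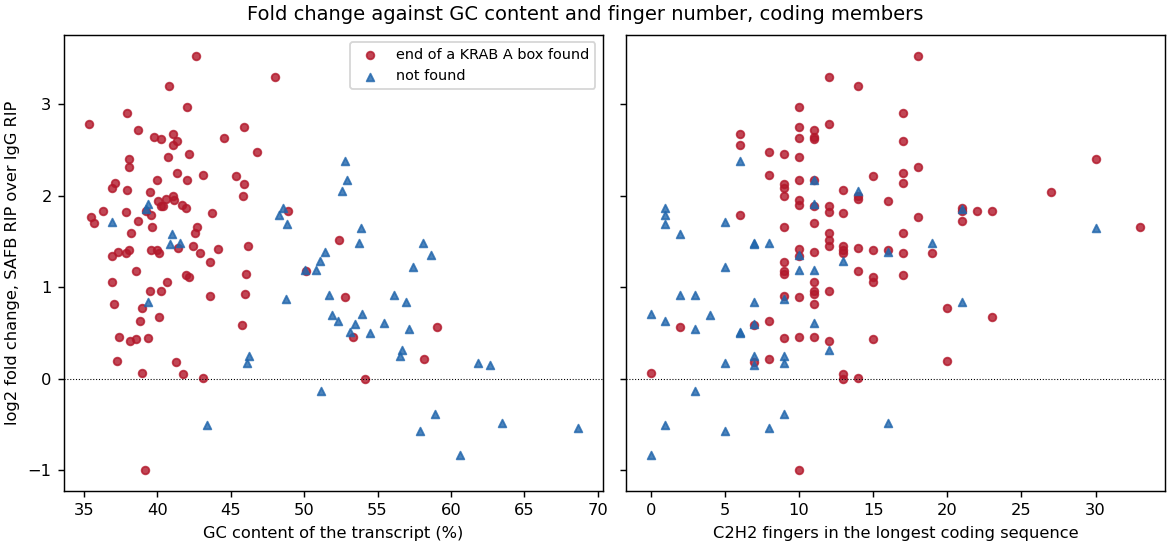
Log2 fold change of SAFB RIP over IgG RIP (vertical axis) against transcript GC content in percent (left) and number of C2H2 fingers (right) for the 143 coding members, 1 point a gene, with members that hold the KRAB A box end marked apart from those without. Members with the end gather at low GC (median 40.7%) and high finger number (median 12).

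More of the members' transcripts lay in 1 exon than over all genes tested, as was also so in the Zfp genes below 600. The representative transcript had a median of 3152 bases, 84.8% of it in 1 exon of 2530 bases at the median, against 2366 bases, 61.3% and 1140 bases over all genes tested. The medians were 3411 bases, 83.3% and 2649 bases below 600, and 2914 bases, 49.0% and 1300 bases over protein-coding genes. GC content was 42.2% at the median, against 49.6% over all genes tested, 46.2% below 600 and 50.5% over protein-coding genes. GAAGA, a purine-rich word reported for SAFB binding in human cells and searched on the transcript strand, occurred 2.58 times per kilobase at the median, against 2.28 over all genes tested and 2.43 over protein-coding genes. Across members its density ran with fold change at rho = 0.08, against 0.37 across 11961 protein-coding genes, again as descriptions over genes that share libraries and composition. A match in a transcript is a string of letters and not a binding site.

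By position, 91 of the 145 genes lay within 200 kb of another member, in 25 runs, and 54 lay alone. Of those in runs 54 were higher and 1 lower, with a median log2 fold change of 1.45, against 29 higher of the 54 alone and a median of 1.30. Chromosome 7 held 37 members, of which 25 were higher, and chromosome 17 held 22, of which 14 were higher. Over all genes tested 29.8% were higher. The longest run, chr17:21383748-22456689 on mm10, held 12 genes that all have the KRAB A box end, and 7 of them were higher. Among these 7, Zfp758 and Zfp820 met the level rule through the SAFB libraries alone, so their direction was fixed by that rule. Its members ranged from Zfp942, with 21.8 and 20.1 TPM in the SAFB RIP against 11.5 and 19.6 TPM in the IgG RIP (log2 fold change 0.45, not passed), to Zfp994 at 2.90. Zfp995 in this run had 9.76 and 7.74 TPM in the SAFB RIP, against 0 and 8.40 TPM in the IgG RIP, and did not pass.

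The run that holds Zfp607a, chr7:27689340-28014115, had 5 of 6 members higher. Zfp626 had 52.8 and 47.6 TPM in the SAFB RIP, against 6.03 and 9.09 TPM in the IgG RIP (log2 fold change 2.60). Zfp780b had 86.7 and 88.3 TPM against 18.7 and 29.1 TPM (1.86), and Zfp974 had 69.7 and 64.9 TPM against 23.1 and 13.7 TPM (1.86), in the same order. Zfp850 had 4.53 and 4.34 TPM in the SAFB RIP, against 0.0161 and 0.971 TPM in the IgG RIP (1.94); it too met the level rule through the SAFB libraries alone, so its direction was fixed by that rule. Zfp607b, the paralog beside Zfp607a, had 4.95 and 3.32 TPM in the SAFB RIP, against 2.13 and 0.230 TPM in the IgG RIP, and did not pass (1.37). In all 6 genes both SAFB values lay above both IgG values, as they did in 52.3% of all genes tested. For Zfp850 this was fixed by the level rule.

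The run on chromosome 13, chr13:67038596-67687071, held 9 KRAB-type genes, 4 of them higher, and spanned the widest range, from -0.998 to 2.42. Both ends belong to neighbours: Zfp874a, given above, and Zfp874b, which had 15.7 and 12.9 TPM in the SAFB RIP, against 0.450 and 4.59 TPM in the IgG RIP (log2 fold change 2.42 ± 0.72, limma adjusted p = 0.0590). Neither passed the test. Of the words of Zfp874a 15.8% occur in Zfp874b, and of those of Zfp874b 13.6% occur in Zfp874a. Exons of Zfp874b also overlap Gm48899 over 737 bases on the opposite strand, so part of both levels is uncertain. Zfp729a, with 11.8 and 11.6 TPM in the SAFB RIP against 1.40 and 2.98 TPM in the IgG RIP, and Zfp729b, with 13.3 and 14.5 TPM against 1.62 and 2.02 TPM, were both higher (2.04 and 2.40), though 40.8% of the words of Zfp729b occur in other genes, most in Gm49345. In the run chr6:47819266-48086593, which holds Zfp746 and Zfp777, the A box end was found in 0 of 5 genes. One of these genes, Zfp783, is annotated as a pseudogene and could not be scored. The lack of a match to the pattern does not show that a KRAB domain is absent. In this run 2 genes were higher and the median was 0.91.

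**Figure D4:**
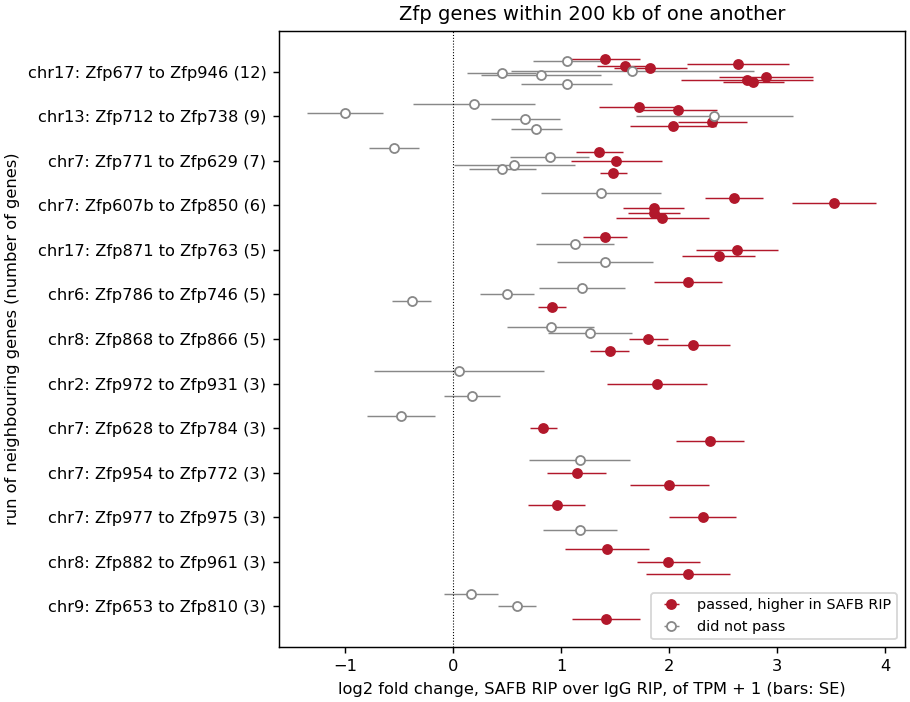
Log2 fold change of SAFB RIP over IgG RIP (horizontal axis, TPM + 1, bars show SE) for members in runs of neighbouring genes within 200 kb (rows, with the number of genes), 1 point a gene, marked by call. The chromosome 17 run of 12 genes spans 0.45 to 2.90 and the chromosome 13 run of 9 genes spans -0.998 to 2.42.

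Shared sequence limits what can be said of single paralogs. In 28 members at least 20% of the transcript's 50-base words occur in another gene; 18 of them were higher, with a median log2 fold change of 1.85, against 65 higher and 1 lower of 117 below that share and a median of 1.37. Zfp955a had 34.6 and 29.5 TPM in the SAFB RIP, against 7.01 and 5.72 TPM in the IgG RIP, and Zfp955b had 27.7 and 21.7 TPM against 6.65 and 5.14 TPM; they share 51.8% and 31.7% of their words with each other, so their rises (2.17 and 1.90) cannot be told apart. Exons of 49 members overlap another gene, 33 of them on the opposite strand, and the use of strand in counting is not given in the sources used here. Among the 76 members with neither overlap nor 20% of words shared, 42 were higher and 1 lower, with a median of 1.40.

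Genes of the silencing pathway that KRAB proteins act through were higher about as often as genes at large. Of 40 listed genes 37 were tested; 13 were higher, 1 was lower and 23 did not pass, beside 29.8% higher and 8.3% lower over all genes tested, with a median log2 fold change of 0.45, close to the 0.46 of all genes tested. After median centring 6 were higher and 6 lower, beside 16.4% and 17.6% over all genes tested. Trim28, the KRAB corepressor, was the 1 that fell, with 116 and 134 TPM in the SAFB RIP against 333 and 301 TPM in the IgG RIP (-1.34 ± 0.12, limma adjusted p = 0.00577). Atrx, a chromatin remodeller of heterochromatin, had 514 and 507 TPM in the SAFB RIP, against 119.6 and 114 TPM in the IgG RIP (2.12 ± 0.09). The NuRD remodellers were higher by less, with Chd3 at 793 and 913 TPM against 517 and 399.9 TPM (0.90 ± 0.17) and Chd4 at 571 and 558 TPM against 362 and 335 TPM (0.70), in the same order. After centring neither Chd3 (0.44) nor Chd4 (0.24) passed. Other NuRD subunits in the list, named here after their values were seen, went both ways. Hdac2 (1.15) and Hdac1 (0.44) were higher, and after centring only Hdac2 passed (0.69). Mta2 (-0.27), Gatad2a (-0.37) and Rbbp4 (-0.38) did not pass, and after centring they were called lower.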

How the data were processed

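The authors deposited 1 table of TPM values, scaled to 1000000 per library, from RIP-seq of AML12 cells. Per the labels' protocols, RNA was DNase-treated, rRNA was removed, and strand-specific libraries were built. HISAT2, HTSeq, DESeq2, StringTie and mm10 are named, per the submitters' processing notes, without roles or versions; annotation release and strand use were not given in the sources used here. Since TPM keeps no depth, read depth is unknown and counting intervals cannot be stated. Of 52189 distinct identifiers (14 rows that shared 6 identifiers were summed), 52042 were found in GENCODE M21, which gave coordinates, transcripts and translated proteins; the longest coding transcript stands for a gene. Fingers are C, 2 to 4 residues, C, 12 residues, H, 3 to 5 residues, H.

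The 16647 genes that reached 1 TPM in 2 or more libraries were fitted together in limma 3.58.1 (R 4.3.3) on log2(TPM + 1), without a block, with a variance trend, two-sided, and p-values were Benjamini-Hochberg adjusted over all of them, threshold 0.05. Low genes' fold changes are understated on this scale. Tables were handled in Python 3.11.15 with pandas 2.3.3. The fit was tested on simulated data. In all, 14 alternatives were run. Labels group the libraries by antibody.

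Members and lists were chosen with earlier results of these data known. Named genes are the 10 highest in mean TPM, the 10 largest rises with groups apart and a SAFB mean of at least 5 TPM, those that fell, the 6 highest that did not pass, and 3 on each side of the level rule; run neighbours and genes said to be so were added. The values of 1 gene of the silencing pathway list are not reported here.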

Additional observations from a re-analysis of the deposited data

How the results depend on the processing

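In all, 83 members were higher and 1 lower, with a median log2 fold change of 1.41. The median was 1.61 with a pseudocount of 0.1, 1.28 with no filter, 0.95 with median centring, 0.88 with quantile normalization, 1.19 over protein-coding genes alone and 1.17 with the GC trend removed, and 1.26 to 1.55 with 1 library left out. The number higher was 65 with no filter, 59 with either centring or quantile normalization, and 2 to 110 with 1 library left out, the lowest without a SAFB library. The number lower was 6 with centring, quantile normalization or protein-coding genes alone, 2 with the GC trend removed, 0 without the variance trend, and 0 to 5 with 1 library left out. With the replicate number as a block 84 were higher, 77 of them among the 83, and 0 lower, beside 4797 higher and 1264 lower over all genes. Deviations of same-numbered libraries correlated at -0.0247 over all genes tested and -0.133 over members. The labels do not say whether equal numbers mark a shared lysate, and these correlations cannot decide it. Among the genes named by rule, direction turned for Zfp787 (-0.31 centred, -0.14 quantile, -0.15 protein-coding alone, but 0.97 and called higher with GC removed), Zfp712 (-0.27 centred, -0.82 quantile, -0.0875 with GC removed, -0.56 to 0.94 with a library left out), Zfp977 (-0.16 quantile), Zfp622 (-0.30 to 0.0247 with a library left out), and, with GC removed, Zfp692 (0.11) and Zfp777 (0.35). It also turned for Zfp771 (0.40 with GC removed). Further members with small rises turned after centring, among them Zfp652 (0.25 to -0.21), Zfp707 (0.22 to -0.24) and Zfp639 (0.18 to -0.28). The list is thus not complete for the 145 members. The causes were not tested. Read depth is unknown, so precision at low TPM cannot be stated.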
